A study of Mus musculus with 2 samples.

Results

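The GIMAP family (GTPases of immunity-associated proteins) was followed through single-cell RNA of mouse bone marrow LSK cells, the Lin- Sca-1+ c-Kit+ compartment that holds haematopoietic stem cells (HSCs) and multipotent progenitors. The members were 7 genes, Gimap1, Gimap3, Gimap4, Gimap5, Gimap6, Gimap8 and Gimap9, taken by symbol from the 27998 genes listed for both libraries, and all 7 were found. Gimap7, the 1 other symbol of the files that begins with Gimap, is given beside them but is not in the family sum. There was 1 library per genotype, from 3-month-old mice. By the labels the WT library is Trmt6fl/fl and the cKO library is Trmt6fl/fl with MX1-cre, whereas the study describes WT mice whose Trmt6 is not floxed and which carry Mx1-Cre as well, with mice of either genotype given pIpC. Mx1-Cre is driven by an interferon-inducible promoter, pIpC is a synthetic double-stranded RNA that induces interferon, and how many mice went into each library is not given in the sources used here.

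GIMAP proteins are small GTPases that sit on intracellular membranes such as those of the endoplasmic reticulum, mitochondria and lysosomes. They are best known in lymphocytes, where several members set how long resting T cells survive, and loss of Gimap5 in rodents leads to lymphopenia and disturbs HSCs. The genes lie side by side in 1 cluster, so that neighbours in the genome can be compared as well as relatives in sequence.

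The files held 8869 WT and 9260 cKO cell barcodes, of which 8149 and 8484 were kept, and the libraries shared 24 barcode sequences. The cKO library was deeper, with a median of 10035 UMIs (unique molecular identifiers, each standing for 1 captured RNA molecule) per kept cell against 4111 in WT, a ratio of 2.44. Cells were put in classes by marker genes that include no Gimap gene. T/NK-gated cells had a UMI of at least 3 of 17 T and natural killer (NK) cell genes, and numbered 13 in WT and 77 in cKO, of which 5 and 4 also met another gate. These numbers depend on the depth of the libraries and are not compared. LSK cells were the kept cells outside the T/NK, B and neutrophil gates, and numbered 8041 in WT and 8278 in cKO. The level of Trmt6 itself in LSK cells was 63.8 CPM in the WT library against 50.5 CPM in the cKO library (log2 ratio -0.34, 95% interval -0.41 to -0.27), but counting at the 3′ end does not test a deleted exon elsewhere in the gene.

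Levels are given as CPM, the UMIs of a gene per 1000000 UMIs summed over the cells of a class. Each captured molecule is counted once at its 3′ end, whatever the length of the transcript, so that members can be set side by side on this scale. Differences are log2 ratios of these levels. All intervals are exact 95% intervals, the limit given for a count of 0 is that of 3 counts unless said otherwise, and both cover counting error only: with 1 library per genotype there is no replicate spread and no test, and genotype and library cannot be told apart.

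The family occupies mouse chromosome 6 between Gimap8 and Gimap3 (GRCm38, GENCODE M21). Gimap8 lies at chr6:48647234-48660875, Gimap9 at chr6:48676129-48679114 and Gimap4 at chr6:48684549-48692060, all on the plus strand. Gimap6 follows on the minus strand at chr6:48701582-48708225. Gimap1 at chr6:48739054-48743795 and Gimap5 at chr6:48746197-48754210 are on the plus strand again, and Gimap3 at chr6:48764464-48770851 closes the cluster on the minus strand. A readthrough gene, Gm28053, is annotated across part of it but covers 0 of the last 500 transcript bases of any member and had 1 UMI in WT and 4 UMIs in cKO LSK cells. None of the 451 stretches of 50 bases at the 3′ end of any member's transcript occurred in another member's transcript, so the counts of the relatives could be separated.

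The promoters below belong to the 2 members that WT LSK cells held at the highest level and the 2 that they held at the lowest, since the data differ most between these. Each is the 250 bases before the RefSeq start (GRCm38.p6), written 5′ to 3′ on the strand of the gene, and capitals mark a match to GGAAGT (the core bound by ETS factors) or TGTGGT (the RUNX motif, here as its reverse complement).
Gimap1, chr6:48738797-48739046, plus strand: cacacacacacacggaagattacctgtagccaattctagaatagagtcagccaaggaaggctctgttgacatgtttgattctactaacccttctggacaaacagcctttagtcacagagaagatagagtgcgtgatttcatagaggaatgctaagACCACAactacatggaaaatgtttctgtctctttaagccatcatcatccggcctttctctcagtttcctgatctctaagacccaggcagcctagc
Gimap6, chr6:48708245-48708494, minus strand: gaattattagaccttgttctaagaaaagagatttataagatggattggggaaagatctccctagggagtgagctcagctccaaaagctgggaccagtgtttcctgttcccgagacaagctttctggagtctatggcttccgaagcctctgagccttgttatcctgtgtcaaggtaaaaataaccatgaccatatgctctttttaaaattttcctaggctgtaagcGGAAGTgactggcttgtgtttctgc
Gimap4, chr6:48684328-48684577, plus strand: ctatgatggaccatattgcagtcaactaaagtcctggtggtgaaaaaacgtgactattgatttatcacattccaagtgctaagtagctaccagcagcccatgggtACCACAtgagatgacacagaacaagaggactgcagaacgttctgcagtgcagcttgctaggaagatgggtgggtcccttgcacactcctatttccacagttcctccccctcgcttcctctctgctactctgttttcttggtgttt
Gimap3, chr6:48770852-48771101, minus strand: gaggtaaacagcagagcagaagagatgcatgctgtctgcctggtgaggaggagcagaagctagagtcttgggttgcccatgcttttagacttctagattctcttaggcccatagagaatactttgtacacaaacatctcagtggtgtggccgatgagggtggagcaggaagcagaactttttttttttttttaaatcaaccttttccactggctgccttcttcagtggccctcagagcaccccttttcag

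Searched on both strands, GGAAGT was found upstream of 2 of the 7 members, Gimap5 and Gimap6. It was in 19.7% of the 32851 RefSeq windows of the same length and, counted by gene as for the members, upstream of 22.2% of 27025 genes. TGTGGT was found upstream of Gimap1 and Gimap4, in 14.0% of all windows and upstream of 15.9% of genes. The interferon response motif, searched as a pair of GAAA blocks set 2 bases apart, was found upstream of 0 of the 7 members. It was in 2.98% of all windows and upstream of 3.46% of genes. The longer ETS motif CCGGAAGT was found upstream of 0 members, in 2.88% of windows and upstream of 3.23% of genes. The 2 members highest in LSK cells thus held different motifs, and Gimap1 shared its RUNX match with Gimap4, which WT LSK cells held at almost no level. These matches describe the letters of these windows only.

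LSK cells held 4 members, Gimap1, Gimap6, Gimap9 and Gimap5, which together made up nearly all of the family's UMIs there in both libraries. In WT LSK cells Gimap1, which mature B and T cells need to survive, was at 89.1 CPM (86.2 to 92.0), or 36.0% of the family's UMIs. Gimap6, which binds the autophagy protein GABARAPL2, was at 86.1 CPM (83.3 to 89.0), or 34.8%. These intervals overlap, so that the order of Gimap1 and Gimap6 was not separable in WT.
Gimap9 was at 43.5 CPM (41.5 to 45.6) and Gimap5, a lysosomal member needed for lymphocyte survival, at 25.8 CPM (24.3 to 27.4). Gimap8, the longest member with several GTPase domains, was at 2.43 CPM (1.98 to 2.96). Gimap4, which affects how fast T cells die, had 8 UMIs in 8 cells (0.197 CPM, 0.085 to 0.388), and Gimap3, a close relative of Gimap5, had 4 UMIs in 4 cells (0.098 CPM, 0.027 to 0.252). WT LSK cells were thus near the floor for Gimap4 and Gimap3, and the intervals of the pair overlap.

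In cKO LSK cells the same 4 members led, and the intervals of all 7 were separate from each other. Gimap1 was at 132.0 CPM (129.6 to 134.5), Gimap6 at 92.5 CPM (90.4 to 94.5), Gimap5 at 49.3 CPM (47.8 to 50.8) and Gimap9 at 38.0 CPM (36.7 to 39.3). Gimap5 and Gimap9 had changed places relative to WT. Gimap4 was at 5.75 CPM (5.26 to 6.28), above Gimap8 at 4.18 CPM (3.76 to 4.64), and Gimap3 stayed lowest at 1.58 CPM (1.33 to 1.87). The 7 members summed to 247.3 CPM (242.5 to 252.2) in WT and 323.3 CPM (319.5 to 327.1) in cKO.

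T/NK-gated cells held the whole family, at a several-fold higher sum. In the 77 cKO T/NK-gated cells, with 281130 UMIs in all, Gimap6 led at 366 CPM (299 to 444), followed by Gimap4 at 320 CPM (257 to 394), Gimap1 at 228 CPM (175 to 291), Gimap5 at 221 CPM (169 to 283), Gimap3 at 189 CPM (141 to 247) and Gimap9 at 132 CPM (92.7 to 181.4). Neighbours in this order had overlapping intervals, down to Gimap8 at 42.7 CPM (22.1 to 74.6), which was below all others.
The 13 WT T/NK-gated cells held 50009 UMIs, so that 1 UMI there stands for about 20 CPM. Gimap6 was at 340 CPM (17 UMIs), Gimap5 at 300 CPM (15 UMIs), Gimap4 at 260 CPM (13 UMIs), Gimap1 and Gimap3 at 160 CPM (8 UMIs each) and Gimap9 at 140 CPM (7 UMIs). No Gimap8 UMI was counted there, for which 3 counts give a limit of 59.99 CPM and the exact interval an upper end of 73.8 CPM.
The sum was 1360 CPM (1056 to 1724) in WT and 1498 CPM (1358 to 1648) in cKO T/NK-gated cells.

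**Figure D1:**
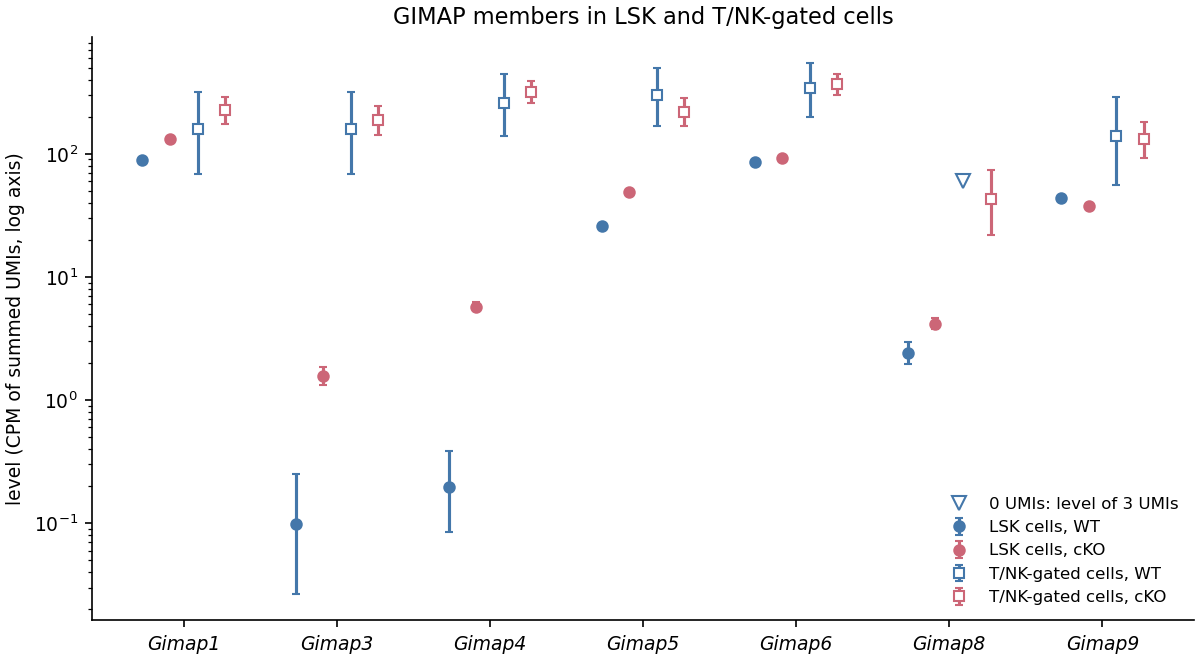
Level of each GIMAP member (CPM of summed UMIs, log axis) in LSK cells (filled circles) and T/NK-gated cells (open squares) of the WT (blue) and cKO (red) libraries, with exact 95% Poisson intervals. Open squares lie between 42.7 and 366 CPM for every member with UMIs, filled circles fall to 0.098 CPM for Gimap3 in WT, and the triangle marks the level of 3 UMIs for Gimap8, which had 0 UMIs in WT T/NK-gated cells.

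The step from LSK to T/NK-gated cells differed in size between members, from under 1 on the log2 scale for Gimap1 to over 10 for Gimap3 and Gimap4 in WT. For the family sum the log2 ratio of T/NK-gated over LSK cells was 2.47 (2.09 to 2.80) in WT and 2.21 (2.07 to 2.35) in cKO. With a gate of only 2 markers, which took in 56 WT and 187 cKO cells, these were 1.15 and 0.90. Without the gated cells that also met another gate, which left 8 in WT and 73 in cKO, they were 2.65 and 2.35, and Gimap4 in WT T/NK-gated cells was at 401 CPM in place of 260 CPM. The cKO member levels also moved with the gate. Gimap4 was at 72.3 CPM with 2 markers, 501 CPM with 4 and 632 CPM with 2 after thinning to 1000 UMIs, in place of 320 CPM. With the same 3 gates Gimap3 was at 45.6, 288 and 370 CPM, in place of 189 CPM.
Gimap1 had the smallest step, 0.93 (-0.37 to 1.82) in WT and 0.80 (0.41 to 1.14) in cKO. Gimap9 stood at 1.79 (0.37 to 2.73) and 1.81 (1.28 to 2.26), and Gimap6 at 2.02 (1.20 to 2.66) and 1.99 (1.69 to 2.27). These 3 members, all held by LSK cells, gave nearly equal values in the 2 libraries.
Gimap5 was at 3.58 (2.69 to 4.27) in WT and 2.17 (1.78 to 2.52) in cKO, intervals that do not overlap. The steps of Gimap4 were 10.34 (8.99 to 11.85) and 5.80 (5.46 to 6.12), and those of Gimap3 were 10.59 (8.77 to 12.85) and 6.90 (6.41 to 7.36). Gimap8 was at 3.41 (2.39 to 4.17) in cKO. For Gimap3, Gimap4 and Gimap5 the smaller step in cKO went with a higher level in cKO LSK cells, while their levels in T/NK-gated cells had overlapping intervals between the libraries.

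Among genes at 20 CPM or more in either class, 22.2% of 5765 in WT were past a log2 ratio of 1 on the T/NK-gated side and 14.5% on the LSK side. Of the 6 members that passed this level in WT, 5 were past 1 on the T/NK-gated side, all but Gimap1, and 0 on the LSK side. In cKO the shares of all genes were 12.3% and 5.06% of 5767, and 6 of the 7 members were past 1 on the T/NK-gated side, again all but Gimap1. The median log2 ratio of all these genes was 0.20 in WT and 0.08 in cKO, and that of the members 2.80 and 2.17. Gimap3, Gimap4 and, in cKO, Gimap8 passed only by their level in T/NK-gated cells and so had to be higher there, and these counts and medians are a description only.

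Members also differed in how they sorted with the strength of the gate. In the cKO library the 16 gated cells with exactly 3 T/NK markers held Gimap4 at 27.9 CPM and Gimap3 at 27.9 CPM. The 24 cells with 4 or 5 markers held Gimap4 at 231 CPM and Gimap3 at 163 CPM, and the 37 cells with 6 or more held them at 904 CPM and 474 CPM. Of the members held by LSK cells, Gimap5 went over the same steps from 74.4 to 183 and 502 CPM and Gimap6 from 186 to 327 and 703 CPM. Gimap1 went from 149 to 250 and 316 CPM, and Gimap9 from 102 to 115 and 201 CPM. In cKO all 6 were thus highest in the cells with 6 or more markers. In WT, with 3 cells at 4 or 5 markers and 5 cells at 6 or more, Gimap4 was at 754 CPM (277 to 1641) and 290 CPM (106 to 631), and Gimap3, Gimap5 and Gimap6 were also lower in the second of these, with overlapping intervals for each.
Cells with exactly 3 markers also held Cd34, a progenitor surface gene, at 214 CPM, close to the 199.7 CPM of cells with no T/NK marker, while cells with 6 or more held it at 28.7 CPM. Kit, another progenitor gene, did not fall: it was at 22.3 CPM with no marker and 27.9 CPM with 3. It was at 28.8 CPM with 4 or 5 and 43.1 CPM with 6 or more, from 3 UMIs in each of these gated groups. Just outside the gate, the 110 cKO cells with 2 markers held Gimap4 at 11.4 CPM. In WT 5 cells had 3 markers and 43 cells had 2. The part of progenitors caught by the gate in these values was not tested.

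**Figure D2:**
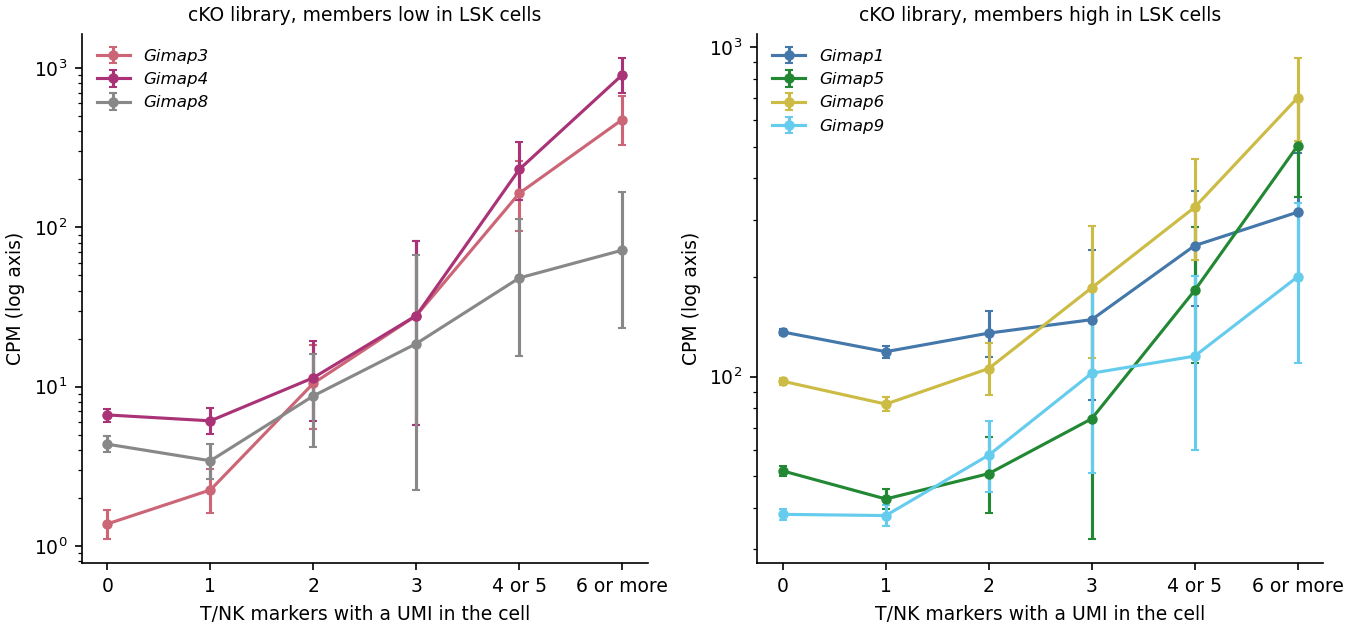
Level of the members (CPM, log axis) in kept cells of the cKO library by the number of T/NK markers with a UMI in the cell, with exact 95% Poisson intervals (left, members low in LSK cells; right, members high in LSK cells). Gimap4 climbs from 27.9 CPM at 3 markers to 904 CPM at 6 or more, Gimap5 from 74.4 to 502 CPM, and Gimap1 lies between 119 and 316 CPM throughout.

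The gated cells carried both T and NK cell genes. Of the 17 markers found in the files, 15 had a UMI in WT T/NK-gated cells (Cd3e and Cd6 were at 0) and all 17 in cKO, with summed levels of 2260 CPM and 3077 CPM. The NK list (Klrd1, Klre1, Klrb1c, Ncr1, Gzma and Eomes) summed to 840 CPM and 1256 CPM, and the 5 T cell genes found (Cd3d, Cd3e, Cd3g, Cd5 and Cd6) to 240 CPM and 491 CPM. In cKO the 33 gated cells with a Cd3 UMI held Gimap4 at 615 CPM and Gimap3 at 445 CPM, and the 44 without one at 210 CPM and 92.8 CPM. The Cd3 genes are gate markers, and Cd34 was at 65.4 CPM in the cells with a Cd3 UMI and 131.9 CPM in those without. The part of progenitors in this difference was not tested. Cells with a Cd3 UMI also held the NK genes Ncr1 and Klrb1c at 432 CPM each, so that genes of both cell types were present in that subset. Kit, the receptor used in the sort, had 1 UMI in WT and 9 UMIs (32.0 CPM) in cKO T/NK-gated cells, against 64.9 CPM and 21.6 CPM in LSK cells. Endothelial cells can also hold GIMAP genes, and of 5 endothelial genes only Kdr had a UMI in T/NK-gated cells, while the list summed to 12.0 CPM and 15.9 CPM in LSK cells, mostly Tie1. The ILC2 list of 6 genes summed to 59.99 CPM and 96.0 CPM in T/NK-gated and 18.9 CPM and 22.7 CPM in LSK cells. In T/NK-gated cells the WT sum was 2 UMIs of Gata3 and 1 of Zbtb16. In cKO it was mostly Gata3 with 16 UMIs, while Rora had 6 UMIs, Il17rb and Arg1 2 each, Il1rl1 1 and Zbtb16 0.

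Between the genotypes, LSK cells differed most in Gimap4 and Gimap3, which T/NK-gated cells hold. Gimap4 went from 8 UMIs in WT to 494 UMIs in cKO (log2 ratio 4.78, 3.88 to 6.09), and Gimap3 from 4 to 136 UMIs (3.85, 2.62 to 5.91). Gimap5 had a log2 ratio of 0.93 (0.83 to 1.03), Gimap8 of 0.78 (0.46 to 1.12) and Gimap1 of 0.57 (0.51 to 0.62). All 5 were higher in cKO beyond counting error.
Gimap6 was nearly level at 0.10 (0.04 to 0.16) and changed sign, to -0.045, when each cell was scaled before averaging, and Gimap9 was lower in cKO at -0.20 (-0.28 to -0.11). The sum had a log2 ratio of 0.39 (0.35 to 0.42). Among genes at 5 CPM or more in either library, 2.85% of 9131 were past a log2 ratio of 1 on the cKO side and 5.22% on the WT side. Of the 5 members at that level, Gimap4 was past 1 on the cKO side and 0 were past 1 on the WT side. Gimap4 reached 5 CPM only in cKO, so that it had to be higher there and its count is a description only. The median log2 ratio over all these genes was -0.08. Ly6a, which encodes the sort marker Sca-1 and responds to interferon, had levels of 35.2 CPM and 140.6 CPM in WT and cKO LSK cells, and its part in the differences of the members was not tested.

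The mix of cells differed between the libraries. GMP-gated cells (granulocyte-monocyte progenitors, marked by genes such as Mpo and Elane) numbered 1136 in WT and 75 in cKO and held little of the family, 67.6 CPM and 43.2 CPM. The sum was therefore also averaged over 5 classes, which leaves out LSK cells in several gates. With classes weighted by their share of UMIs, the log2 ratio of the sum was 0.39 with each library's own mix and 0.06 with the WT mix given to both. With classes weighted by their share of cells, it was 0.23 with each library's own mix and 0.08 with the WT mix. All but the last of these, and the member values that follow, were added after the values were seen. With the WT mix by cells, Gimap1 had a log2 ratio of 0.16, Gimap8 of 0.25 and Gimap5 of 0.53, while Gimap6 was at -0.16, against -0.05 by cells with each library's own mix and 0.10 as first given, and Gimap9 stood at -0.28. Gimap4 at 4.996 and Gimap3 at 4.37 were as large as before.

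HSC-gated cells, marked by genes such as Procr, Mecom and Hlf, held the family at the highest level among the LSK classes. They numbered 617 in WT and 935 in cKO, and the sum was 491 CPM (461 to 522) and 526 CPM (509 to 542), a log2 ratio of 0.10 (-0.00079 to 0.20). Gimap1 was at 207 CPM and 205 CPM, Gimap6 at 166 CPM and 167 CPM, and Gimap9 at 48.9 CPM and 44.0 CPM. For these 3 the intervals of the 2 libraries overlap.
Gimap5 was at 61.5 CPM against 85.5 CPM in cKO (0.47, 0.20 to 0.76), and Gimap8 at 7.27 CPM and 7.13 CPM. Gimap4 stood apart: it had 0 UMIs among the 2064591 UMIs of WT HSC-gated cells and 116 UMIs in 103 of the 935 cKO cells, 15.3 CPM (12.7 to 18.4). The exact interval of the log2 ratio of cKO over WT began at 3.08 for Gimap4. Gimap3 had 0 UMIs in WT and 13 UMIs in cKO, and its interval began at -0.27, so that a difference was not detectable at this depth. At 20 CPM or more in either library, 1.89% of 5721 genes were past a log2 ratio of 1 on the cKO side and 5.59% on the WT side, and of the 4 members at that level 0 were past 1 on either side.

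The family was lower in GMP-gated cells than in HSC-gated cells in both libraries. The log2 ratio of HSC-gated over GMP-gated cells was 2.86 (2.72 to 3.00) for the sum in WT and 3.59 (3.21 to 4.02) in cKO. Gimap5 had the largest step in WT among the 4 members that passed the count minimum, at 3.94 (3.44 to 4.49), followed by Gimap1 at 3.47 (3.22 to 3.72), Gimap6 at 3.01 (2.76 to 3.26) and Gimap9 at 1.03 (0.68 to 1.36). The intervals of Gimap5 and Gimap1 overlap, as do those of Gimap1 and Gimap6, so the order within each pair was not separable. All 4 were past 1 on the HSC side in WT, where 12.1% of 5815 genes were, and all 4 in cKO, where 7.60% of 5541 genes were. Gimap1 and Gimap5 in WT, and all 4 in cKO, reached the minimum of 20 CPM only in HSC-gated cells and so had to be higher there, which makes these counts a description only. On the GMP side the shares were 4.90% and 4.69%, with 0 members.

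LMPP-gated cells, lymphoid-primed progenitors marked by genes such as Dntt and Flt3, numbered 788 in WT and 144 in cKO. The sum was 319 CPM in WT and 449 CPM in cKO (0.50, 0.35 to 0.64). Gimap6 led there at 147 CPM and 161 CPM, and Gimap9 reached its highest level among LSK classes at 61.2 CPM and 78.0 CPM. In WT the log2 ratio of HSC-gated over LMPP-gated cells for Gimap9 was -0.32 (-0.68 to 0.03), so that these 2 classes were not separable. Gimap5 was at 23.2 CPM and 57.9 CPM (1.32, 0.85 to 1.79). Gimap4 had 2 UMIs in WT and 33 UMIs in 20 cKO cells, 0.58 CPM against 25.5 CPM. Gimap1 had a log2 ratio of 0.46 (0.17 to 0.75). Gimap3 had 0 UMIs in WT and 7 UMIs in 4 cKO cells, with up to 3 in a cell. Its interval, which takes UMIs as independent, began at 1.94. Gimap1, Gimap3, Gimap4 and Gimap5 were thus higher in cKO LMPP-gated cells beyond counting error. The intervals of Gimap6 (0.13, -0.12 to 0.36), Gimap8 and Gimap9 span 0.
Cells in no gate, 5084 in WT and 7032 in cKO, held the sum at 305 CPM and 306 CPM (0.01, -0.03 to 0.04). Within that level sum 4 members were higher in cKO beyond counting error, Gimap4 (4.21, 3.11 to 5.98), Gimap3 (3.30, 1.93 to 5.82), Gimap5 (0.47, 0.36 to 0.59) and Gimap1 (0.16, 0.10 to 0.23). Gimap6 (-0.29, -0.36 to -0.22) and Gimap9 (-0.43, -0.53 to -0.33) were lower, and the interval of Gimap8 spans 0.

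**Figure D3:**
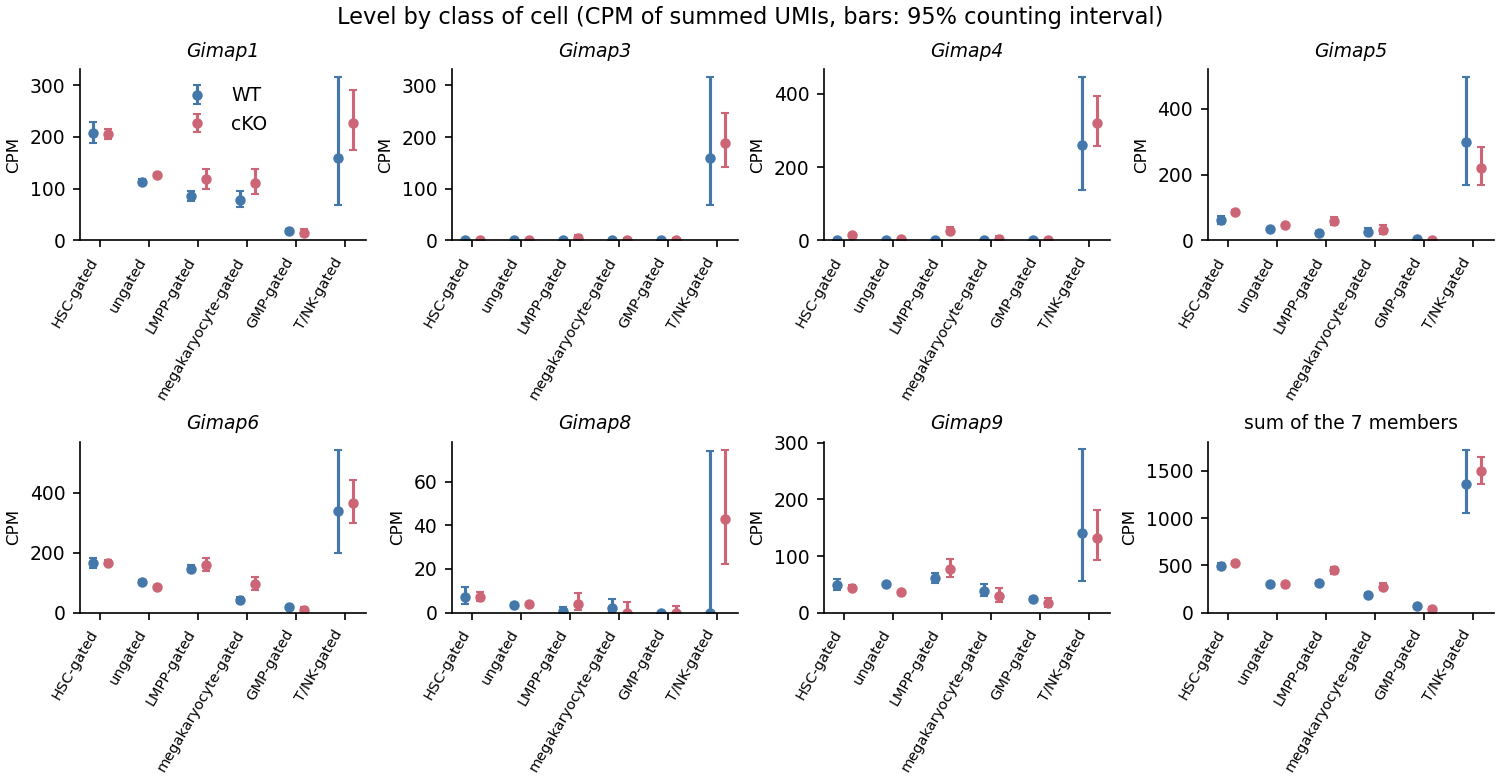
Level of each member and of the sum (CPM, linear axes from 0, each panel with its own scale) by class of cell in WT (blue) and cKO (red), with exact 95% Poisson intervals. The sum falls from 491 and 526 CPM in HSC-gated cells to 67.6 and 43.2 CPM in GMP-gated cells, and reaches 1360 and 1498 CPM in T/NK-gated cells.

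**Figure D4:**
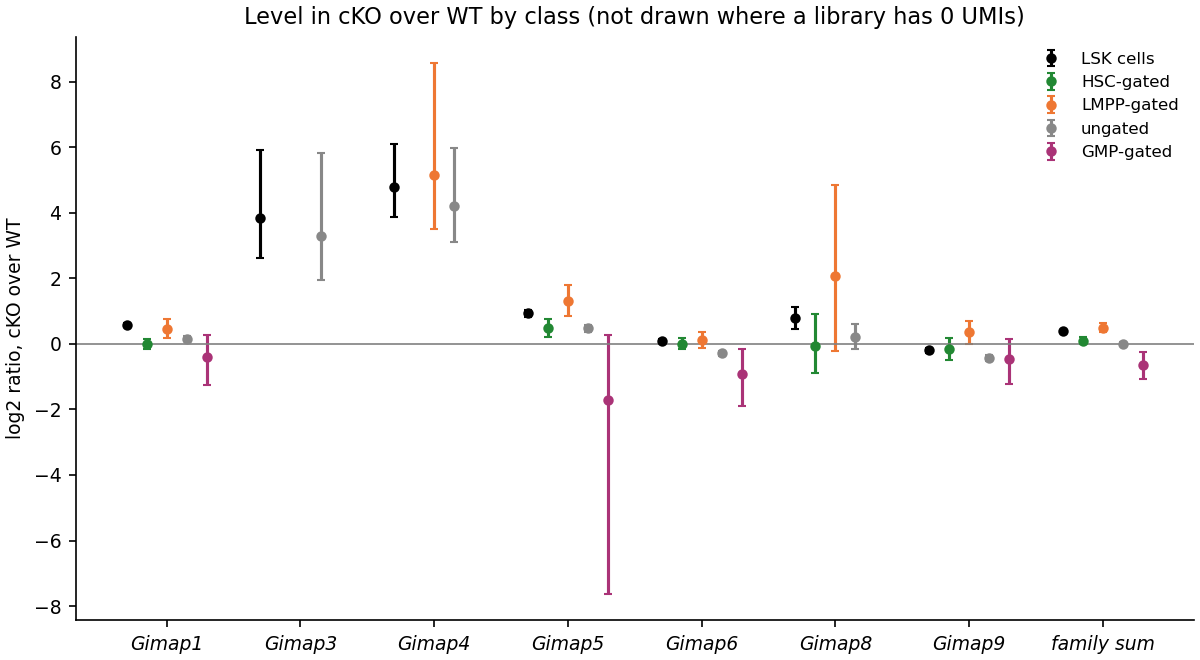
log2 ratio of the level in cKO over WT for each member and for the family sum in LSK cells and 4 of their classes, with exact conditional 95% intervals, not drawn where a library had 0 UMIs. Gimap4 lies at 4.78 in LSK cells and 5.16 in LMPP-gated cells, while the family sum lies at 0.01 in ungated and 0.10 in HSC-gated cells.

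In T/NK-gated cells the genotypes could not be separated at this depth. The log2 ratio of cKO over WT was 0.13 (-0.23 to 0.53) for the sum, 0.25 (-0.55 to 1.26) for Gimap4, 0.16 (-0.85 to 1.52) for Gimap3 and -0.48 (-1.27 to 0.48) for Gimap5. Each of these intervals spans 0. For Gimap6 it was 0.07 (-0.64 to 0.94).

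Gimap4 in cKO LSK cells was spread over many cells. Its 494 UMIs lay in 427 cells with at most 5 UMIs in a cell, and the 10 cells with most UMIs held 6.48% of them. LSK cells with 2 T/NK markers, 104 in all, held 2.02% of these UMIs. Gimap3 was less evenly spread, with 136 UMIs in 111 cells, 20.6% of them in 10 cells and 8.09% in cells with 2 T/NK markers.
Of the 17 T/NK marker genes, 9 had a higher level in LSK cells of cKO than of WT, 7 a lower one and 1 was at 0 in both. Skap1, a signalling adaptor of T cells, went from 5 to 113 UMIs (0.12 and 1.32 CPM), Il2rb, a receptor chain for interleukin 2, from 1 to 11 UMIs, and Lck, a kinase of T cell receptor signalling, from 11.3 CPM to 19.6 CPM. In the other direction, the NK cell receptor genes Klrd1 and Klrk1 went from 105 to 48 UMIs (2.58 and 0.56 CPM) and from 60 to 12 UMIs (1.47 and 0.14 CPM), and Cd3d, a chain of the T cell receptor complex, from 0.47 CPM to 0.17 CPM. These 6 genes were named after their values were seen. The summed markers stood in LSK cells at 0.851% of their level in T/NK-gated cells in WT and 0.825% in cKO, and without Lck, which made up most of the sum in LSK cells, at 0.421% and 0.210%. For Gimap4 this share was 0.076% in WT and 1.80% in cKO, and for Gimap3 0.061% and 0.840%. In cKO HSC-gated cells Gimap4 stood at 4.78% of its T/NK-gated level, the markers without Lck at 0.162%, and the markers Cd3d, Cd3e, Cd3g, Klrd1, Klrk1 and Gzma at 0 UMIs. With Lck the markers summed there to 22.3 CPM, against 3077 CPM in T/NK-gated cells. Lck alone was at 17.8 CPM, against 302 CPM in T/NK-gated cells. The gate kept LSK and HSC-gated cells below 3 of these markers, so the marker shares had to be low, whereas the gate uses no Gimap gene. Marker and Gimap shares are therefore not a like comparison, and the T/NK-gated levels beneath them change with the gate. The part of T/NK cells in the level of Gimap4 in LSK cells was not tested.
GMP-gated cells of the same library had 0 Gimap4 UMIs among 1227380 UMIs, which allows up to 2.44 CPM, at a median of 16534 UMIs per cell against 10114.5 in all LSK cells.

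To set shares of cells side by side across the difference in depth, 1000 UMIs were drawn from each cell, and the 15 WT and 8 cKO LSK cells with fewer were set aside. A UMI of at least 1 member was then found in 26.1% (25.1 to 27.03) of WT and 29.4% (28.4 to 30.4) of cKO LSK cells, against 64.5% and 89.4% with all UMIs. The share was 40.7% and 41.4% in HSC-gated cells, 8.11% and 4.05% in GMP-gated cells, and 61.5% (8 of 13) and 80.5% (62 of 77) in T/NK-gated cells. A Gimap4 UMI was found in 0.062% of WT and 0.750% of cKO LSK cells, and in 0 of 617 WT HSC-gated cells (a share of up to 0.486% is possible), against 1.28% of cKO HSC-gated cells. The share of cells with Gimap9 went the other way in LSK cells, 5.15% (4.67 to 5.65) in WT and 3.57% (3.18 to 3.99) in cKO.
UMIs of at least 2 different members were found in 3.92% and 5.04% of LSK cells, 9.40% and 8.66% of HSC-gated cells and 38.5% and 53.2% of T/NK-gated cells at this depth.

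Along the cluster, the 4 members held by LSK cells did not lie in 1 block, although Gimap1 and Gimap5 were neighbours. From Gimap8 at 2.43 CPM in WT LSK cells the levels ran through Gimap9 at 43.5 CPM, Gimap4 at 0.197 CPM, Gimap6 at 86.1 CPM, Gimap7 at 2.95 CPM, Gimap1 at 89.1 CPM, Gimap5 at 25.8 CPM and Gimap3 at 0.098 CPM. In T/NK-gated cells the same genes, Gimap8 apart, lay within 140 to 340 CPM in WT. Gimap7, which is not a member here, was at 5.02 CPM in cKO LSK cells and at 140 CPM and 139 CPM in T/NK-gated cells. In cKO LSK cells it thus lay between Gimap4 and Gimap8, and in WT T/NK-gated cells it had 7 UMIs, as many as Gimap9.
Of 12 genes whose starts lie within 200000 bases of the ends of the family, 5 reached 5 CPM in LSK cells. Of these, 0 were past a log2 ratio of 1 in either direction, against 2.85% (cKO side) and 5.22% (WT side) of all genes at that level. Tmem176b and Tmem176a, which encode proteins of intracellular membranes, had log2 ratios of cKO over WT of -0.11 (-0.14 to -0.08) and -0.24 (-0.28 to -0.19), and Zfp775 of -0.95 (-1.19 to -0.71). Gm5111, whose level was 44.2 CPM against 73.9 CPM in cKO, stood at 0.74 (0.67 to 0.82) and Repin1 at 0.39 (0.28 to 0.51). Of the 5 neighbours, 2 were thus higher and 3 lower in cKO, beside 3858 of all 9131 genes at that level that were higher. These counts are a description only.

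**Figure D5:**
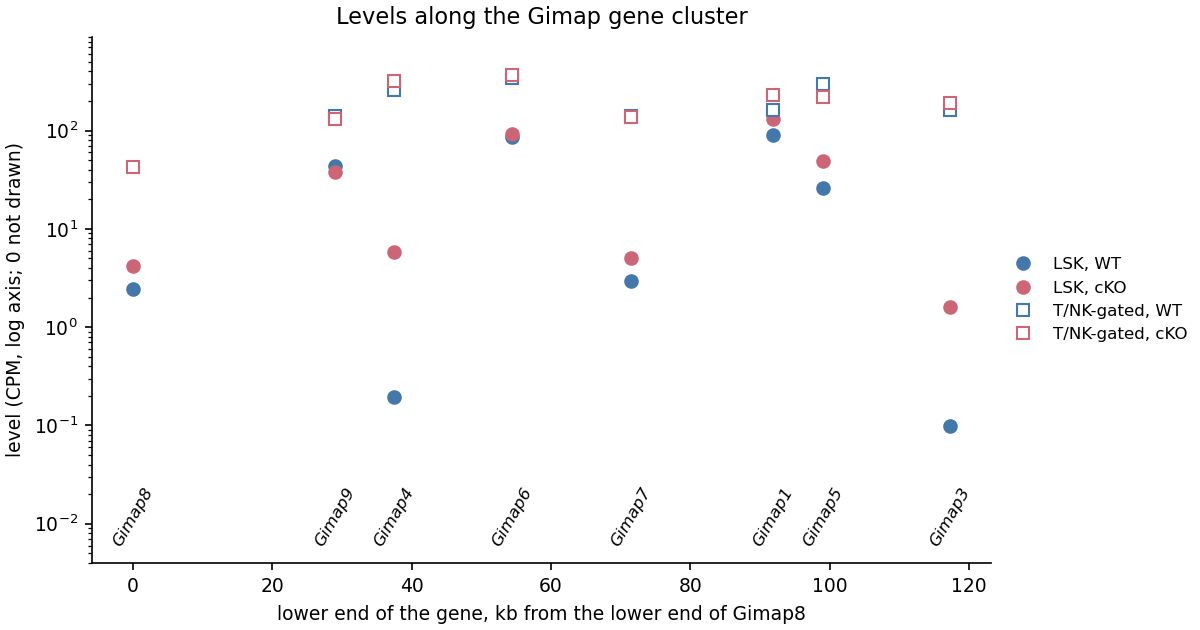
Level of the Gimap genes (CPM, log axis, 0 not drawn) against the distance of the lower end of each gene from that of Gimap8 (kb), in LSK cells (filled) and T/NK-gated cells (open squares) of WT (blue) and cKO (red). Filled points lie between 0.098 and 132.0 CPM, with Gimap1 and Gimap5, both held by LSK cells, side by side, while open squares other than that of Gimap8 lie between 132 and 366 CPM.

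Proteins tied to GIMAP function were followed through a list of 9 genes: the BCL2 family members Bcl2, Bcl2l1, Mcl1, Bax and Bad, the kinase Gsk3b, and the autophagy genes Gabarap, Gabarapl1 and Gabarapl2. All 9 reached 5 CPM in LSK cells, and 3 were higher and 6 lower in cKO. Of all 9131 genes at that level, 3858 were higher in cKO. The median log2 ratio was -0.32 against -0.08 over all genes. Bax, which promotes cell death, was past 1 on the cKO side at 136 CPM and 303 CPM (1.15, 1.11 to 1.20). Bcl2, which opposes it, was past 1 on the WT side at 64.0 CPM and 26.1 CPM (-1.29, -1.38 to -1.21). Over all genes at that level, 2.85% were past 1 on the cKO side and 5.22% on the WT side.
Gabarapl2, the partner of Gimap6, was at 149 CPM and 119 CPM (-0.32, -0.37 to -0.28). Gsk3b, a kinase that acts downstream of Gimap5 in T cells, was at 104 CPM and 75.6 CPM (-0.46, -0.52 to -0.40). In this list Bax and Bcl2 differed in opposite directions, and the other 7 stayed within a log2 ratio of 1.
Of 7 genes of resting T cells (Klf2, Foxo1, S1pr1, Ccr7, Il7r, Tcf7 and Lef1), 1 was at 5 CPM or more in LSK cells. It was past 1 on the WT side, as were 5.22% of all genes at that level. This was Klf2, a transcription factor of quiescence, at 73.8 CPM in WT against 14.2 CPM in cKO (-2.38, -2.48 to -2.28), on the opposite side from Gimap4 and Gimap3.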

How the data were processed

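Single-cell RNA of LSK cells was measured in 2 libraries, WT and cKO by their labelled genotype. The files deposited by the authors are matrices of UMI counts, genes by cell barcodes, from Cell Ranger 6.0.0 and the mm10 (GRCm38) genome. The labels name 3′ kit v2 and the methods v3. Reads were not analysed here.

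Barcodes were kept with more than 200 genes, fewer than 4000 (WT) or 4500 (cKO) genes, under 10% (WT) or 5% (cKO) mitochondrial and under 5% hemoglobin UMIs. Doublets were scored against simulated pairs and removed at 0.8% per 1000 barcodes (7.09% of WT and 7.41% of cKO barcodes). The study states a larger number of kept cells in both libraries. The T/NK list had 18 genes, of which 17 were in the files. HSC-, LMPP- and megakaryocyte-gated cells had at least 2 markers after thinning to 2000 UMIs. GMP-gated cells had at least 0.5% of UMIs from 6 myeloid genes. Cells in several gates were left out of the HSC-, LMPP-, megakaryocyte-, GMP-, B- and neutrophil-gated classes but stayed in the T/NK-gated class and, outside the T/NK, B and neutrophil gates, in LSK cells.

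log2 ratios use 0.5 prior counts. Exact intervals came from scipy 1.17.1 (Clopper-Pearson for a share, Poisson for a level, conditional binomial for a ratio). The log2 ratios and their intervals were tested on simulated Poisson counts, and thinning was checked on WT cells. The other steps were not tested in this way. All 7 members and every other Gimap symbol were named, with the fixed lists, and the genes most like the family by Pearson correlation of log2(CPM + 10). TMM factors came from edgeR 4.0.16. Members, gates and lists were chosen with earlier results of these data known. A listed gene is not reported here.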

Additional observations from a re-analysis of the deposited data

Results flagged for a closer look

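Gimap6 differed in direction between classes of LSK cells when cKO was set against WT. In megakaryocyte-gated cells, 296 in WT and 79 in cKO, its log2 ratio was 1.18 (0.67 to 1.70), from 58 UMIs in WT and 74 UMIs in cKO. In GMP-gated cells it was -0.91 (-1.89 to -0.16), from 223 and 13 UMIs, and in ungated cells -0.29 (-0.36 to -0.22). The intervals cover counting error in 1 library per genotype, and the difference between the classes was not tested.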

How the results depend on the processing

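No paired analysis was possible because each genotype has 1 library, and for the same reason no replicate could be left out. The log2 ratio of the family sum in LSK cells, 0.39, was 0.50 with median-of-ratios factors, 0.50 with TMM, 0.48 with totals free of mitochondrial and ribosomal protein genes, 0.24 with each cell scaled first, 0.080 with the same mix of classes by cells, 0.057 with the same mix by UMIs and 0.23 with each library's own mix by cells. Both factors moved every log2 ratio by 0.11, and the median of all genes from -0.08 to 0.03. Gimap6 changed sign with each cell scaled first (-0.045) and with the same mix of classes by cells (-0.16) or UMIs (-0.18) and the own mix by cells (-0.055), these last 3 chosen after seeing the data. Gimap4 stayed between 4.49 and 4.996, Gimap3 between 3.13 and 5.23, Gimap5 between 0.50 and 1.04 and Gimap9 between -0.30 and -0.08. With median-of-ratios factors the interval of Gimap9, -0.17 to 0.00098, spans 0. The log2 ratio of T/NK-gated over LSK cells for the sum was 1.15 in WT and 0.90 in cKO with a gate of 2 markers (56 and 187 cells), 2.91 and 2.67 with 4 markers, and 2.83 and 3.01 with 2 markers after thinning. In cKO it was 2.74 with each cell scaled first and 2.05 with doublets kept. With all UMIs the share of LSK cells with a family UMI was 24.8 percentage points higher in cKO, against 3.34 at 1000 UMIs. At a minimum of 50 CPM the share of genes past 1 on the LSK side was 7.26% in WT and 3.17% in cKO. The other 33 summary values stayed within the interval of the reported value, or within 1.5-fold for shares of genes. The cause of these shifts was not tested.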

Other observations

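B-gated cells, which had a UMI of at least 3 of 9 B cell genes, also held the family. In the cKO library 89 such cells held the sum at 622 CPM, with Gimap6 at 202 CPM, Gimap1 at 192 CPM, Gimap5 at 87.4 CPM, Gimap4 at 77.4 CPM (46 UMIs in 26 cells), Gimap9 at 53.8 CPM and Gimap3 at 8.41 CPM (5 UMIs). Gimap4 was thus also held outside the T/NK gate in this library. In WT 9 cells were B-gated and held 14 family UMIs in all. The 61 neutrophil-gated WT cells held the sum at 31.1 CPM (12 UMIs), the lowest of the WT classes, and the cKO library had 0 such cells.

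Over 13 profiles (7 classes in 2 libraries, without B-gated WT cells), 4248 genes reached 50 CPM somewhere, and those whose log2(CPM + 10) was most like that of the family sum were Ltb (Pearson r 0.961), Abi3 (0.951), Tnfrsf18 (0.944), Shisa5 (0.942) and H2-T22 (0.941). Ltb encodes lymphotoxin beta and Tnfrsf18 the receptor GITR, both of lymphocytes. The members had different nearest genes. For Gimap1 these were Sepw1 (0.898), Slc50a1 (0.875) and Rbm26 (0.864), and for Gimap9 Klf3 (0.954), Tbc1d10c (0.942) and Tox (0.926). For Gimap4 they were Hopx (0.950), Ets1 (0.943) and Sh2d2a (0.942), and for Gimap8 Klra3 (0.902), Cd3e (0.902) and Prss2 (0.895). Gimap5 had Abi3 (0.953), Ltb (0.948) and Tnfrsf18 (0.944), and Gimap6 had Ltb (0.938), Abi3 (0.927) and Shisa5 (0.913). For Gimap3 they were Gzma (0.998), Cd247 (0.993) and Klre1 (0.988), all genes of the T/NK gate itself. The profiles share libraries and depth, and the T/NK-gated pair lies far from the rest, so these values are descriptions.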
